A study of Mus musculus with 7 samples.

Results

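Ly6c2 inflammatory monocytes of NSCG brain tumours were described in 7 single-cell RNA libraries of whole tumours. A cell was counted as a Ly6c2 monocyte when it held at least 3 Ly6c2 UMIs (unique molecular identifiers, each counting 1 captured transcript), at least 3 Lyz2 UMIs, fewer than 5 UMIs over C1qa, C1qb and C1qc, and none of P2ry12, Tmem119, Sall1, Cd3d, Cd3e and Cd3g. Of 51795 cells that passed the barcode filters, 1274 met the rule. The levels of these 11 genes chose the cells and are given only as a description.

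Inflammatory monocytes are bone marrow-derived blood cells that carry the surface antigen Ly6C and leave the marrow and enter inflamed tissue through the chemokine receptor CCR2. In tissue they can respond to interferon-gamma from T and NK cells with CXCL9, guanylate-binding proteins, MHC class II and PD-L1, and they can go on to become macrophages, losing Ly6C and gaining complement C1q on the way. In gliomas they are 1 source of tumour macrophages, beside the resident microglia.

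The tumours grew from 1 cell line, NSCG-mCherry (EGFRvIII+, Arf/Ink4a-/-), in the brains of wild-type C57BL/6 mice aged 7 to 10 weeks, and tissue was taken at about day 14. The UT library came from untreated mice. The 2 IgG libraries are isotype controls, with IgG2b dosed at 10 mg/kg every 3 days from day 6 to 7. The labels do not say which IgG library, if any, also had the oral diluent that served as control for IPI-145. The 2 BP libraries had anti-PD-L1 at 10 mg/kg together with 5 mg/kg of the VEGF-blocking antibody B20, injected every 3 days from day 6 to 7. BPI added IPI-145, an inhibitor of the PI3K delta and gamma isoforms, by mouth every day at 10 mg/kg, and the CD40 library had an agonist antibody against CD40 at 100 µg per dose in 2 doses spaced 5 days apart, with a dendritic cell vaccine neither stated nor excluded for it. The study design text gives 3 rounds of treatment, taken here for IgG, BP and BPI and not for CD40. At least 2 mice were pooled in each library, so each library counted as 1 sample, differences between single mice could not be measured, and p-values measure only the spread between pooled libraries.

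Library depth ran from 68997476 to 186793886 UMIs. The monocytes held a median of 4811 to 16695 UMIs per cell, depending on the library. Levels below are CPM, the UMIs of a gene per 1000000 UMIs summed over the monocytes of a library, with exact 95% Poisson intervals where given. Intervals of levels and of shares cover counting error only. UT stood apart from the other 6 libraries: it listed 713553 barcodes against 1487060 to 2310016, although the labels give the same kit chemistry for all, and the monocytes' Xist level was 0.509 CPM in UT against 186 to 383 CPM in the others. Gm42418, a locus that overlaps ribosomal RNA sequence, was at 89.0 CPM in UT, 4452 CPM in BP replicate 1 and 12867 to 42172 CPM in the remaining 5 libraries. Between any 2 libraries, 0 to 26 cell barcodes were shared, and none of them belonged to monocytes in both. RNA released into the suspension, read from barcodes of at most 100 UMIs, could account for up to 26.1% to 59.1% of the monocytes' UMIs, an estimate that also takes in doublets.

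The monocytes were unevenly spread over the libraries. They were 245 of 5626 cells in UT, which was 4.35% (exact Clopper-Pearson 95% interval 3.84% to 4.92%). IgG replicate 1 held 25 of 6257 cells (0.400%, 0.259% to 0.589%) and IgG replicate 2 held 3 of 8006 (0.0375%, 0.00773% to 0.109%). BP replicate 1 held 463 of 10539 cells (4.39%, 4.01% to 4.80%) and BP replicate 2 held 136 of 6009 (2.26%, 1.90% to 2.67%). BPI held 395 of 7035 cells (5.61%, 5.09% to 6.18%), and CD40 held 7 of 8323 (0.0841%, 0.0338% to 0.173%). The UT, BP and BPI libraries were thus at or above 2.26%, and the IgG and CD40 libraries at or below 0.400%. The untreated library lay within the range of the BP and BPI libraries.

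**Figure D1:**
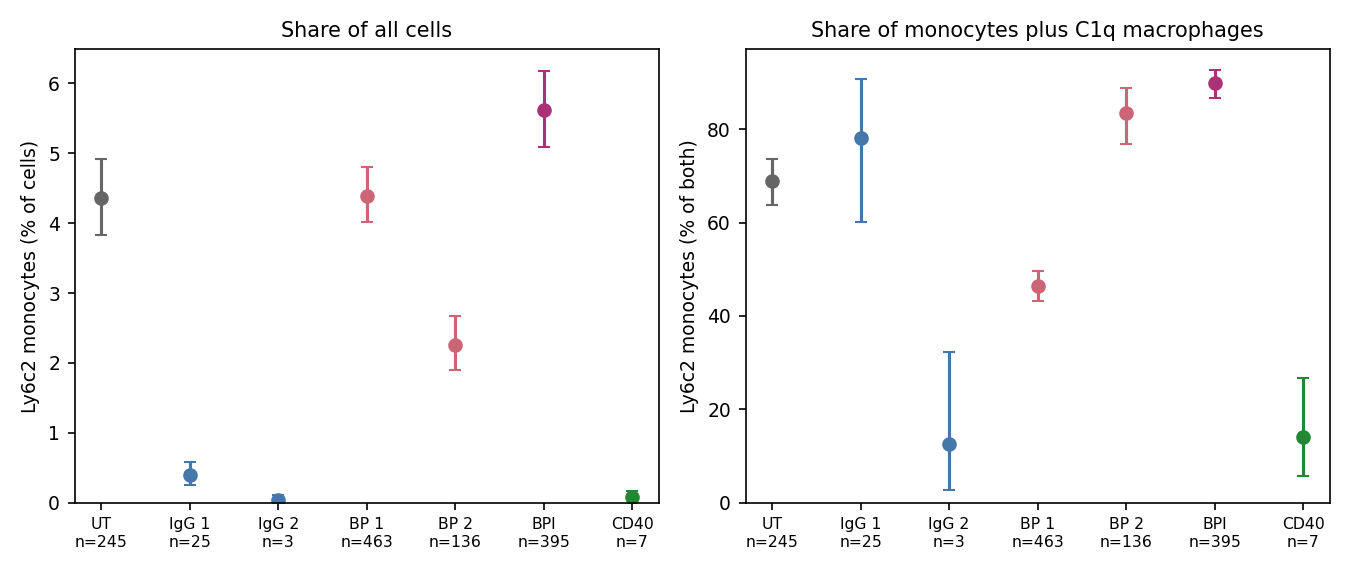
Share of Ly6c2 monocytes in each of the 7 libraries, among all cells (left, %) and among Ly6c2 monocytes plus C1q macrophages (right, %). Points are single pooled libraries, bars are exact 95% binomial intervals, and n is the number of monocytes; UT, both BP libraries and BPI lie at 2.26% of cells or more, and both IgG libraries and CD40 at 0.400% or less.

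The mean share was 3.33% ± 1.51 (SD, n = 2) in BP and 0.219% ± 0.256 (SD, n = 2) in IgG. The ranges did not overlap, but the exact permutation test, two-sided, gave p = 0.333, the smallest value that 2 libraries against 2 allow. The difference of 3.11 percentage points was 2.04 without BP replicate 1. It was 2.94 when every cell was thinned to 1000 UMIs, drawing the same number of transcripts from each. The rule was lowered for thinned cells, to at least 1 Ly6c2 UMI, at least 1 Lyz2 UMI and fewer than 2 C1q UMIs. The main rule was thus not applied at equal depth. Among libraries with neighbouring library names, IgG replicate 1, BP replicate 2 and BPI, the shares were 0.400%, 2.26% and 5.61%, and in the other such pair IgG replicate 2 and CD40 were at 0.0375% and 0.0841%. A share of whole-tumour cells also moves with the number of other cells captured, and the part this had was not tested. With C1q macrophages (cells with at least 3 Lyz2 UMIs and at least 5 C1q UMIs, under the same exclusions) as the other member of the pair, the monocytes' share ran from 12.5% in IgG replicate 2 and 14.0% in CD40, through 46.4% in BP replicate 1 and 68.8% in UT, to 78.1% in IgG replicate 1, 83.4% in BP replicate 2 and 90.0% in BPI. The BP and IgG ranges overlapped on this scale (64.9% ± 26.2 against 45.3% ± 46.4, SD, n = 2 each, exact permutation p = 0.667), and without IgG replicate 2 the difference of 19.6 percentage points turned to -13.2.

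The label was checked on genes that the rule did not use. Ccr2, the receptor that draws monocytes out of the marrow, had a UMI in 49.8% to 100% of the monocytes of a library. After every cell was thinned to 1000 UMIs, the share was 18.2% to 100%, against 5.41% to 16.0% of T cells (at least 3 Cd3 UMIs), whose median depth was 2978 to 6278 UMIs. Both monocyte ranges take in IgG replicate 2 and CD40, which held only 3 and 7 monocytes. Plac8, a gene typical of Ly6C-high monocytes, was at 6661 CPM in UT, 2326 and 931 CPM in IgG, 2399 and 2348 CPM in BP, 3953 CPM in BPI and 960 CPM in CD40. Of 13 neutrophil markers, 2 to 9 were at 0 UMIs in the 5 libraries with at least 25 monocytes and their summed level was 91.6 to 199 CPM, except for 2933 CPM in BP replicate 2. At least 3 UMIs of these markers were held by 27.2% of monocytes in BP replicate 1, 10.6% in BPI and at most 5.88% in UT, IgG replicate 1 and BP replicate 2. An alternative left out monocytes with at least 3 UMIs over S100a8 and S100a9, or any UMI of Ly6g, Cxcr2 or some lymphoid markers. The monocytes' share of cells was then 3.96% in BP replicate 1 and 5.29% in BPI, and its gene calls are given below. The part of all 13 markers was not tested. The 9 conventional dendritic cell markers summed to 97.6 CPM in BP replicate 1 (0 of 9 at 0), 71.2 CPM in UT (2 at 0), and 19.7 to 21.9 CPM in IgG replicate 1, BP replicate 2 and BPI (1 to 7 at 0). They summed to 303 CPM in IgG replicate 2 and 57.3 CPM in CD40 (6 at 0 in each). Flt3 was at 0 to 7.16 CPM in 6 libraries and at 40.5 CPM in IgG replicate 2, whose 3 cells also held Cd209a, a gene of monocyte-derived dendritic cells, at 223 CPM against 0 to 10.2 CPM elsewhere. In the 5 libraries with 25 or more monocytes, the 7 plasmacytoid dendritic cell markers summed to 278 to 520 CPM, with at least 3 UMIs in 14.2% to 40.0% of cells, and the 7 macrophage markers outside the rule reached 3 UMIs in 57.2% to 96% of cells. IgG replicate 2 and CD40 held too few cells to characterise.

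Ly6c2, which marks inflammatory monocytes but is also made by activated and memory T cells, was at 5663 CPM in UT, 2287 and 829 CPM in IgG, 1883 and 2499 CPM in BP, 2680 CPM in BPI and 766 CPM in CD40. T cells thinned in the same way held a Ly6c2 UMI in 11.5% to 58.5% of cells and a Lyz2 UMI in 0% to 4.97%. The median monocyte held 34 Ly6c2 UMIs in UT, 7 in IgG replicate 1 and 12 to 13 in the BP and BPI libraries. Just inside the Ly6c2 threshold, at 3 UMIs, stood 43 cells of BP replicate 1, 28 of BPI, 6 of UT and 3 of IgG replicate 1. Just outside, at 2 UMIs, stood 35, 26, 5 and 5 cells. The close relative Ly6c1, which endothelial cells make, was at 144 CPM in UT, with 90.5% of its UMIs in 5 of 245 cells, and at 0 to 21.6 CPM elsewhere.

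Other genes of circulating monocytes differed in order between libraries. Chil3, encoding a chitinase-like protein, was at 2045 CPM in BP replicate 1, 478 CPM in BP replicate 2 and 1159 CPM in BPI, against 163 CPM in UT and 256 and 0 CPM in IgG. F13a1, a coagulation factor subunit of monocytes, was lowest in UT at 47.3 CPM and stood at 138 to 236 CPM in the other 4. Ccr2 itself was highest in IgG replicate 1 at 505 CPM and lower in UT, BP and BPI, at 146 to 263 CPM. Ms4a4c, an interferon-responsive monocyte gene, was at 2610 CPM in UT and 806 to 1939 CPM in the other 4.

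Gene differences were tested on summed UMIs with edgeR in the 5 libraries that held at least 10 monocytes, so the 3 cells of IgG replicate 2 and the 7 of CD40 were left out and IgG stood on replicate 1 alone. In BP against IgG, 0 of 11110 genes (0%) passed an adjusted p of 0.05 with edgeR, with 476 genes at an unadjusted p under 0.05 and 1 gene (0.009%), Cxcl9, called by DESeq2. In BPI against IgG the counts were 0 of 11110 (0%), 422 unadjusted and 16 by DESeq2 (0.144%). In BPI against BP they were 0 of 11110 (0%), 229 and 0, and in UT against IgG 0 of 11651 (0%), 736 and 32 (0.275%). On simulated counts at the depths of these libraries, the BP against IgG test found 14% of genes changed 4-fold and 66% of genes changed 8-fold. The changed genes were drawn from those at or above the median level. All genes were given a common spread (CV 36.1%). The real spread differs between genes, so these shares are not the power of the test on the data. The median log2 difference over all genes was 0.16, 0.17, -0.06 and 0.22 in these 4 contrasts, and 57.8%, 57.8%, 46.1% and 57.9% of all genes were positive. List medians and counts below stand beside these. UT, BPI and IgG were 1 library each in the fits, so the SE and p of UT or BPI against IgG come from the spread between the 2 BP libraries, moderated over genes, and assume that the lone libraries vary like them. The contrasts against IgG share that 1 library. An added fit took IgG replicate 2, with its 3 monocytes, as the only IgG library. There the sign turned for 36 of 87 named genes in BP against IgG, 21 of 86 in BPI against IgG and 26 of 86 in UT against IgG.

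Of 36 interferon-gamma responsive genes, 30 (83.3%) were at higher levels in both BP libraries than in IgG replicate 1, as were 46.5% of all 11110 genes, and none passed the test. Cxcl9, the chemokine that draws CXCR3-positive T cells (chromosome 5, 92321347 to 92328079, minus strand, GRCm38), was at 913 CPM (885 to 942) in the first BP library and at 1061 CPM (995 to 1130) in the second. It was at 26.2 CPM in IgG replicate 1 (7.14 to 67.1, from 4 UMIs) and at 0 UMIs in IgG replicate 2. Both BP libraries lay above both IgG libraries, and the log2 difference was 5.19 ± 1.08 (SE, edgeR adjusted p = 0.92). It was called in 8 of 18 alternative settings, whose log2 differences ran from 0.39, with UT pooled into the control, to 13.58, a value against 0 UMIs that is no bound. The adjusted p ran from 3.6e-09 to 1. A Cxcl9 UMI was found in 58.3% and 44.1% of BP monocytes and in 12.0% of those of IgG replicate 1. After thinning the shares were 36.7%, 33.1% and 0%, and in T cells of these libraries they were at most 0.997%.

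Of 36 tested genes of the interferon-gamma list, 0 passed in either direction and 33 had a positive log2 difference in BP against IgG, with a median of 1.48 beside 0.16 over all genes. Of these, 4 genes were at 0 UMIs in IgG replicate 1. With them set to the floor of 3 counts in that library (19.7 CPM), or left out where BP was under it too, the median was 1.32. Ly6i, a Ly6 surface protein gene, was at 452 and 136 CPM in BP, while IgG replicate 1 held 1 UMI, 6.55 CPM (0.166 to 36.5). Its log2 difference of 5.36 ran from -1.29 to 11.89 over 18 alternative settings, with the sign turned in 1 of them. Cd274, which encodes PD-L1, the target of the BP antibody, was at 564 and 207 CPM in BP and at 65.5 and 60.7 CPM in IgG, a log2 difference of 2.44 ± 0.87 (SE, edgeR adjusted p = 0.92). With IgG replicate 2 as the only IgG library the log2 difference was 3.24 for Cd274, on the same side, and Cxcl9, at 0 UMIs there, stayed positive. The GTPase genes Gbp2 and Iigp1 were at 1055 and 344 CPM and at 1546 and 577 CPM in BP, while IgG replicate 1 held them at 177 and 236 CPM. Nos2, which makes nitric oxide, was at 80.6 and 18.7 CPM in BP and at 0 UMIs in both IgG libraries. BP replicate 1 was at least 4.10-fold higher than the floor of IgG replicate 1, and BP replicate 2 was under that floor.

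Of 14 genes of antigen presentation on MHC class II, 10 lay higher in both BP libraries than in IgG replicate 1 and 1 lay lower in both, and none passed the test. Of all 11110 genes, 46.5% lay higher in both and 28.3% lower in both. H2-Ab1, an MHC class II chain, was at 3953 and 1998 CPM in the BP libraries, 505 CPM in IgG replicate 1 and 1436 CPM in the 3 cells of IgG replicate 2. Its log2 difference was 2.46 ± 0.91 (SE, edgeR adjusted p = 0.92). H2-Aa, the partner chain, differed by 2.58 ± 0.89 and Cd74, the invariant chain, by 1.90 ± 0.92, at the same adjusted p. With IgG replicate 2 as the only IgG library the log2 differences were 1.64, 1.19 and 1.23 for H2-Ab1, H2-Aa and Cd74. Over 18 alternative settings they ran from 0.22 to 3.16, from -0.13 to 4.07 and from -0.15 to 2.65. The sign of H2-Aa and of Cd74 turned in 1 setting each. None of the 14 tested MHC class II genes passed, 11 were positive, and their median was 2.01 (1.43 with the 4 genes at 0 in IgG replicate 1 treated as above). None of 20 MHC class I genes passed, and their median was 0.52.

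Antiviral genes, which type I interferon also induces, did not share that pattern against IgG replicate 1. None of 34 tested members passed and only 4 were positive in BP against IgG, with a median of -0.58. Rsad2, encoding the antiviral enzyme viperin (chromosome 12, 26442746 to 26456452, minus strand), was at 2641 CPM in IgG replicate 1, 0 UMIs in IgG replicate 2, and 527 and 1208 CPM in BP. Isg15, a ubiquitin-like modifier, was at 3375 and 344 CPM in IgG and at 925 and 2464 CPM in BP. Cxcl10, a chemokine of the same receptor as Cxcl9, was at 1710 and 80.9 CPM in IgG and at 898 and 1758 CPM in BP. In all 3 genes the IgG libraries lay far apart, with the BP libraries between them or beside the higher one. With IgG replicate 2 as the only IgG library the log2 differences turned to 2.99 for Isg15 and 4.71 for Cxcl10, and Rsad2, at 0 UMIs there, turned positive too. Isg15 was also frequent in T cells: after thinning, 59.5% of T cells of IgG replicate 1 held it, against 17.7% and 37.8% in BP.

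The upstream 250 bases of the start sites of 4 interferon-response genes are shown: Cxcl9 and Gbp5 from the interferon-gamma list, Rsad2 and Isg15 from the antiviral list. A difference between the lists was not tested. Sequences are from RefSeq (GRCm38.p6), 5′ to 3′ on the gene's strand. Capitals mark matches on either strand to the letters of a gamma-activated site (GAS: TTC, any 3 bases, GAA), of an interferon-stimulated response element (ISRE: GAAA, any 2 bases, GAAA) or of an NF-kappaB site (GGGA, any 4 bases, CC).
Cxcl9, chr5:92328080-92328329, minus strand: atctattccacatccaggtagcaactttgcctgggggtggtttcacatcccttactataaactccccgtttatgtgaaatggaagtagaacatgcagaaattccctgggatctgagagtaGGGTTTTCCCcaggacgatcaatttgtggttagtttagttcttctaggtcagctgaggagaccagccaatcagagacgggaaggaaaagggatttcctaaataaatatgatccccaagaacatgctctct
Gbp5, chr3:142496684-142496933, plus strand: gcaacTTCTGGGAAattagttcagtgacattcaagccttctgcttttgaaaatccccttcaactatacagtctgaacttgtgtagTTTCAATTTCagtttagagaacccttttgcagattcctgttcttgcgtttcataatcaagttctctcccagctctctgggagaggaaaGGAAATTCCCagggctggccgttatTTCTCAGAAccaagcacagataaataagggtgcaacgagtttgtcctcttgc
Rsad2, chr12:26456453-26456702, minus strand: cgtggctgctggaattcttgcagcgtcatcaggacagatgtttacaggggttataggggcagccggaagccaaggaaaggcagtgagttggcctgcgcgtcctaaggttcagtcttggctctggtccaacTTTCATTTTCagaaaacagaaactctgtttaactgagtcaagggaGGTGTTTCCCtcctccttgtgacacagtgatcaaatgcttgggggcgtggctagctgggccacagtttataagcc
Isg15, chr4:156200819-156201068, minus strand: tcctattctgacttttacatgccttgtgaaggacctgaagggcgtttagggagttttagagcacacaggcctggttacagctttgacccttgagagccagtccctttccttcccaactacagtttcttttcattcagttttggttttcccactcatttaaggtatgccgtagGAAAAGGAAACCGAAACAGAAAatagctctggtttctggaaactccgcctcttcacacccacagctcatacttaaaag
The Cxcl9 window held 1 NF-kappaB match and the Gbp5 window 2 GAS, 1 ISRE and 1 NF-kappaB match. The Rsad2 window held 1 ISRE and 1 NF-kappaB match, and the Isg15 window 3 ISRE matches in a row, each overlapping the next. Of 25 interferon-gamma list genes with a window, 13 (52%) held GAS letters, against 4 of 27 antiviral genes (14.8%) and 8.13% of all 27025 genes. ISRE letters stood in 12 of the 25 (48%), in 14 of the 27 (51.9%) and in 3.46% of all genes. NF-kappaB letters stood in 10 of the 25 (40%), in 5 of the 27 (18.5%) and in 19.7% of all. A match of letters is a description of the sequence and not a bound site.

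Genes that monocytes gain as they become macrophages were lower on the log2 scale in BP than in IgG replicate 1, without passing the test: 0 of 25 passed, 6 were positive, and the median was -1.07. Gpnmb, a lysosomal glycoprotein gene, was at 518 CPM in IgG replicate 1 and at 17.2 and 69.2 CPM in BP, a log2 difference of -3.64 ± 0.81 (SE, edgeR adjusted p = 0.92). Apoe, the lipid carrier, was at 7340 and 223 CPM in IgG and at 1846 and 3365 CPM in BP. Spp1, encoding osteopontin, was at 2674 and 20.2 CPM in IgG and at 89.0 and 1229 CPM in BP, with 82.4% of its UMIs in 5 of 25 cells of IgG replicate 1 and 56.6% in 5 of 136 cells of BP replicate 2. In each of these genes IgG replicate 1 lay above both BP libraries, and the 3 cells of IgG replicate 2 lay below them. With IgG replicate 2 as the only IgG library the log2 differences turned to 4.22 for Apoe and 5.75 for Spp1, and that of Gpnmb, at 0 UMIs there, turned positive. Free RNA could account for at most 2.02% of the UMIs of these 3 genes in IgG replicate 1 and for 37.3% to 100% in BP replicate 1. The summed level of 7 macrophage markers outside the rule was 9142 CPM in IgG replicate 1, 445 CPM in IgG replicate 2, and 2845 and 4196 CPM in BP, with 2, 4, 0 and 1 of the 7 at 0 UMIs. Mrc1 was among those at 0 in both IgG libraries. Microglia markers summed to 603 CPM in IgG replicate 1 (at least 3 UMIs in 56% of cells, 5 of 7 at 0), 243 CPM in IgG replicate 2 (66.7%, 6 of 7 at 0) and 141 and 399 CPM in BP (16.4% and 34.6% of cells, 0 and 2 of 7 at 0). The part of macrophage or microglia RNA in the difference was not tested.

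**Figure D2:**
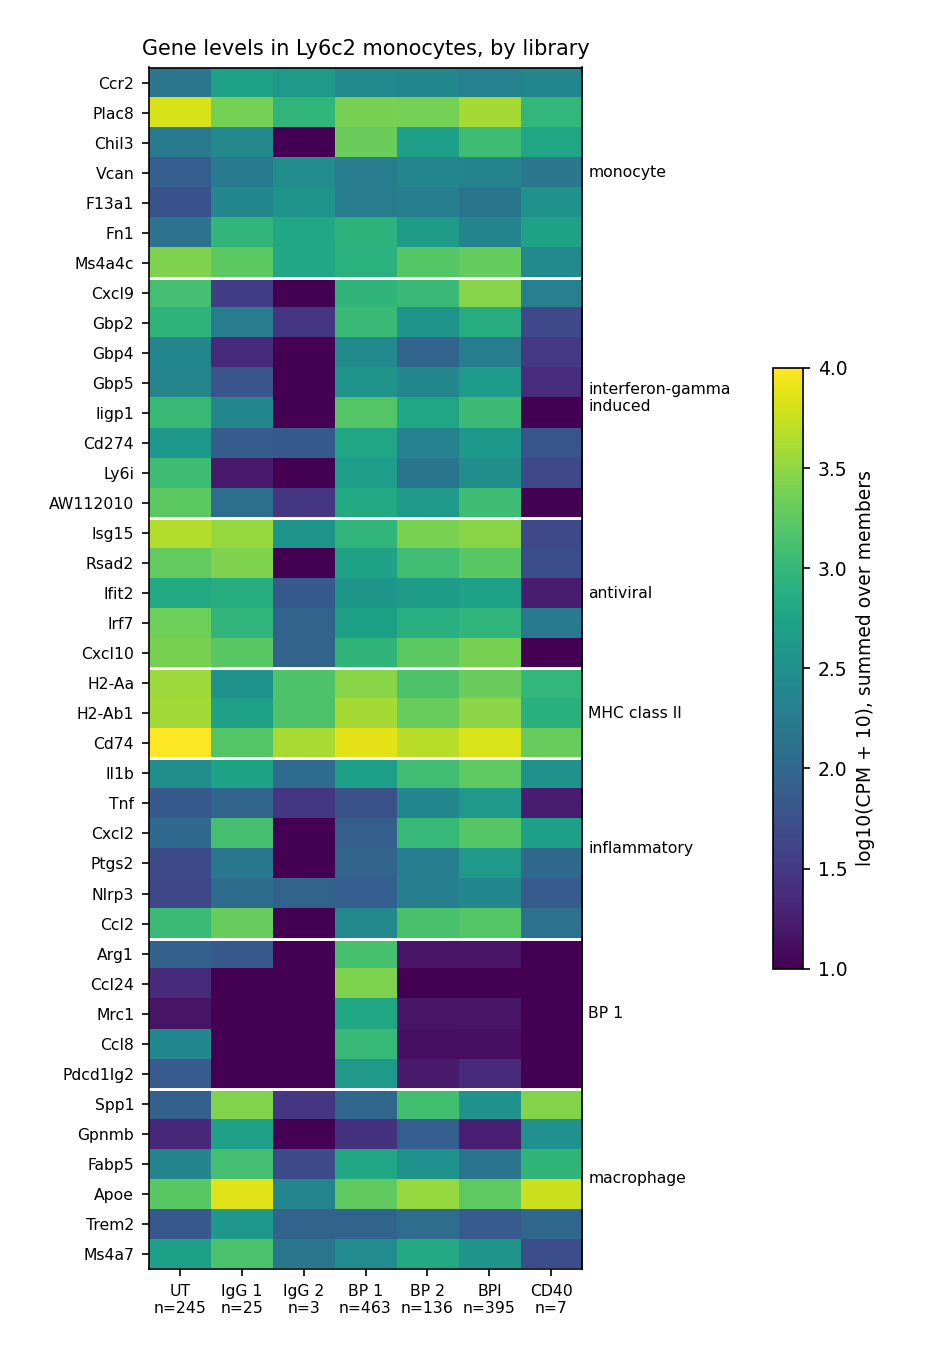
Levels of single genes, in rows grouped by role, over the Ly6c2 monocytes of each of the 7 libraries (columns, n is the number of monocytes), as log10(CPM + 10) in colour. The interferon-gamma induced rows are bright in UT, both BP libraries and BPI and darker in IgG, the antiviral rows are bright in IgG replicate 1 too, and the rows marked BP 1 are bright in BP replicate 1.

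The 2 BP libraries differed from each other in 5 genes that were chosen with their values in view. Arg1, encoding arginase 1 (chromosome 10, 24915221 to 24927484, minus strand), was at 1347 CPM in BP replicate 1 (1312 to 1381) and at 4.39 CPM in BP replicate 2 (1.20 to 11.3), with 75.8 CPM in UT, 59.0 and 0 CPM in IgG, 4.38 CPM in BPI and 0 in CD40. Ccl24, an eosinophil-attracting chemokine (chromosome 5, 135569937 to 135573049, minus strand), was at 2610 CPM in BP replicate 1 and at 13.2 CPM in UT, and at 0 UMIs in the other 5. Mrc1, the mannose receptor, was at 627 CPM in BP replicate 1 and at most 4.58 CPM in any other library. Pdcd1lg2, encoding PD-L2, was at 406 CPM in BP replicate 1, 62.6 CPM in UT and at most 12.7 CPM elsewhere. Ccl8, a monocyte chemoattractant, was at 1022 CPM in BP replicate 1 and 239 CPM in UT, but free RNA could account for 43.6% of it in BP replicate 1 and 91.7% of its UMIs in UT lay in 5 cells. The 5 genes were thus at high levels in 1 of the 2 BP libraries. Nos2, Cd274 and Gbp2 were higher in BP replicate 1 than in BP replicate 2 as well. Endothelial and mural markers moved with this difference: they summed to 758 CPM in BP replicate 1, with 0 of 12 at 0 UMIs and 66.1% of monocytes holding at least 3 UMIs of them, against 129 CPM, 6 of 12 at 0 and 11.0% in BP replicate 2. Pecam1, which endothelial cells and some monocytes make, was found in 289 of 463 against 12 of 136 monocytes, while the endothelial genes Cldn5 and Cdh5 were at 8.17 and 6.58 CPM in BP replicate 1. Other marker sums also differed between BP replicate 1 and BP replicate 2: T and NK cells at 723 against 267 CPM, plasmacytoid dendritic cells at 520 against 305 CPM, conventional dendritic cells at 97.6 against 19.8 CPM, and tumour and glia at 418 against 133 CPM. The chemokine gene Ccl5, 1 of the T and NK markers, had a UMI in 222 of 463 against 30 of 136 monocytes. Gm42418 was at 4452 against 26806 CPM. The part of these in the difference was not tested. C1q macrophages of BP replicate 1 held Arg1 at 1696 CPM, Ccl24 at 2433 CPM and Mrc1 at 883 CPM, while those of BP replicate 2 held 8.65, 0 and 0 CPM.

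Within BP replicate 1, 270 of 463 monocytes held an Arg1 UMI and 193 did not, with median depths of 8224 and 6769 UMIs. Free RNA could account for 6.13% of the Arg1 UMIs there. The cells with Arg1, the deeper ones, were at 3675 CPM for Ccl24 against 614 CPM, 1526 against 77.0 CPM for Ccl8, 878 against 155 CPM for Mrc1 and 4982 against 2023 CPM for H2-Ab1. They were lower in the monocyte genes Ccr2, at 164 against 447 CPM, and Plac8, at 1798 against 3525 CPM, and in Cxcl9, at 749 against 1222 CPM. These are sums over cells of 1 library and carry no test.

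Cells with and without a Cxcl9 UMI were set side by side in UT, BP and BPI, where free RNA could account for 0.461% to 4.53% of Cxcl9 UMIs. In BPI, 291 monocytes held Cxcl9 and 104 did not, at median depths of 4818 and 4734 UMIs. Those with Cxcl9 were at 437 against 251 CPM for Cd274, 150 against 31.8 CPM for Nos2 and 3299 against 2049 CPM for H2-Ab1, and at 170 against 282 CPM for Ccr2. In BP replicate 2, 60 monocytes with Cxcl9 and 76 without, at median depths of 5177 and 5379 UMIs, were at 320 against 108 CPM for Cd274 and 138 against 325 CPM for Ccr2. In UT, 168 with and 77 without, at 6336 and 5313 UMIs, were at 426 against 294 CPM for Cd274 and 149 against 140 CPM for Ccr2. In BP replicate 1, 270 with and 193 without, at 7304 and 7124 UMIs, were at 612 against 494 CPM for Cd274 and 239 against 298 CPM for Ccr2. Cd274 was at a higher level in the cells with a Cxcl9 UMI in all 4 libraries, and Ccr2 at a lower level in 3 of them, with no test.

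BPI monocytes showed the highest Cxcl9 level of the series, 2823 CPM (2755 to 2893), found in 73.7% of cells and in 59.5% after thinning. Against IgG replicate 1 the log2 difference was 7.02 ± 1.18 (SE, edgeR adjusted p = 0.86). It was called in 10 of 18 alternative settings, which gave log2 differences of 2.22 to 15.44, the latter again against 0 UMIs, and adjusted p of 1.8e-11 to 1. All 36 tested interferon-gamma genes were positive and none passed, with a median of 2.28 beside 0.17 over all genes (1.99 at the floor). Cd274 was at 388 CPM, a log2 difference of 2.83 ± 0.93 (SE, edgeR adjusted p = 1). Cd40, the receptor of the T cell ligand CD154, was at 262 CPM against 52.4 CPM in IgG replicate 1. Of 14 MHC class II genes, 13 were positive and none passed, with a median of 2.49 (1.76 at the floor). All 20 MHC class I genes were positive and none passed, with a median of 0.98. Of 23 inflammatory cytokine genes, 20 were positive and none passed, with a median of 1.45 (1.36 at the floor). Of 34 antiviral genes, 22 were positive, with a median of 0.18 beside 0.17 over all genes. By CPM, without TMM scaling, 12 of them (35.3%) were higher and 22 (64.7%) lower in BPI than in IgG replicate 1. Of all 11110 genes, 46.9% were higher and 52.7% lower on that scale. Tnf was at 399 CPM in BPI against 85.2 CPM in IgG replicate 1, and Il1b at 1771 against 537 CPM. Nos2 was at 119 CPM, at least 6.04-fold higher than the floor of IgG replicate 1, and Saa3, an acute-phase protein gene, was at 231 CPM, at least 11.7-fold higher. Marker sums of other cells differed too. T and NK markers were at 899 CPM in BPI (3 of 12 at 0) against 308 CPM in IgG replicate 1 (11 of 12 at 0). All of the 308 CPM was the chemokine gene Ccl5, which is 1 of these markers and had a UMI in 184 of 395 BPI monocytes. Macrophage markers were at 2227 against 9142 CPM and microglia markers at 306 against 603 CPM. Their part in the differences was not tested. Gpnmb was at 7.89 CPM against 518 CPM, a log2 difference of -5.76 ± 1.15 (SE, edgeR adjusted p = 1) that turned positive against IgG replicate 2, which held 0 UMIs of it.

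**Figure D3:**
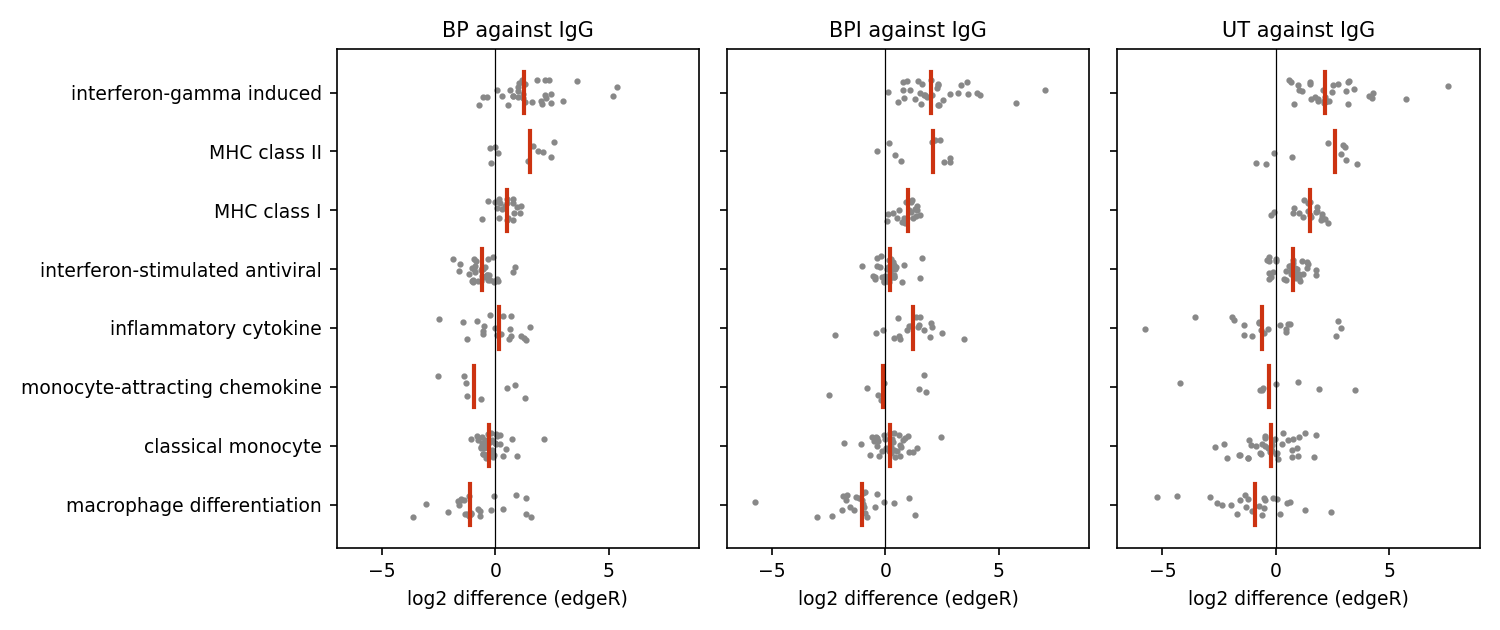
Log2 differences from edgeR (horizontal axis) of single genes (points) in 8 gene lists for BP, BPI and UT against IgG replicate 1, with the median of the points as a red bar; genes at 0 UMIs in IgG replicate 1 are not drawn. Points of the interferon-gamma induced and MHC class II lists lie mostly to the right of 0 and those of macrophage differentiation mostly to the left, and no gene passed an adjusted p of 0.05.

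Adding IPI-145 to BP was read from BPI against the 2 BP libraries. Inflammatory and interferon genes lay on the positive side: 22 of 23 inflammatory cytokine genes, 34 of 34 antiviral genes and 33 of 36 interferon-gamma genes were positive, with medians of 1.06, 0.74 and 0.75 beside -0.06 over all genes, and 0 passed in any of them. Summed levels in BPI, BP replicate 1 and BP replicate 2 were 9998, 3736 and 6987 CPM for the inflammatory list, 15561, 9190 and 12648 CPM for the antiviral list and 17694, 13944 and 9708 CPM for the interferon-gamma list. In fits over all but the UT library with the replicate number as a block, in the given or the crossed pairing, the log2 differences of Rsad2 and Cxcl10 were negative, at -0.90 and -0.85 and at -0.15 and -0.32. Stress and immediate-early genes, which cell dissociation can also induce, moved with them: 15 of 16 were positive and none passed, with a median of 0.63, and their part in the result was not tested. Il1b was at 1771 CPM in BPI, 479 CPM in BP replicate 1 with 1178 CPM in BP replicate 2. Tnf was at 399, 45.6 and 233 CPM in the same order, a log2 difference of 1.79 ± 0.86 (SE, edgeR adjusted p = 1). Ptgs2, the inducible prostaglandin synthase, was at 408, 79.6 and 182 CPM, and the neutrophil attractant Cxcl2 at 1627, 70.1 and 1012 CPM. In each of these BPI lay above both BP libraries, and BP replicate 2, which carries a neighbouring library name, lay closer to it. Cxcl9 differed by 1.83 ± 0.70 (SE, edgeR adjusted p = 1). Arg1 differed by -6.80 ± 2.46 and Mrc1 by -5.71 ± 2.09 (SE, edgeR adjusted p = 1 for both), and both differences came from BP replicate 1, since BP replicate 2 was at 4.39 CPM for each gene and BPI at 4.38 CPM. Of 13 tested genes of monocyte-derived dendritic cells, 1 was positive, with a median of -1.55. Their list summed to 457 CPM in BPI, with the BP libraries at 853 and 361 CPM on either side of it.

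Transcripts of the drug targets and of their receptors were read in the monocytes as well. Pik3cd, the PI3K delta catalytic subunit, was at 84.4 CPM in UT, 39.3 and 40.5 CPM in IgG, 131 and 60.4 CPM in BP, 58.3 CPM in BPI and 100 CPM in CD40. Pik3cg, the gamma subunit, was at 13.2 to 45.9 CPM. Vegfa was at 6.55 to 70.6 CPM, and free RNA could account for 30.7% to 100% of it. Flt1, the VEGF receptor that monocytes carry, was at 438 and 75.8 CPM in BP, 115 CPM in BPI and 78.6 CPM in IgG replicate 1, and endothelial cells make it too. In UT against IgG its log2 difference was 1.55. Pdcd1, encoding PD-1, was at 0 to 1.36 CPM.

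Untreated monocytes held the highest summed level of the interferon-gamma list, 20236 CPM, against 13944 and 9708 CPM in BP, 17694 CPM in BPI and 5393 CPM in IgG replicate 1. Cxcl9 was at 1253 CPM in UT (1204 to 1303), a log2 difference to IgG of 5.75 ± 1.12 (SE, edgeR adjusted p = 0.48). Ly6i was at 1147 CPM and H2-Ab1 at 3779 CPM, the latter a log2 difference of 3.08 ± 0.97 (SE, edgeR adjusted p = 0.69). All 37 tested interferon-gamma genes were positive and none passed, with a median of 2.33 (2.14 at the floor) beside 0.22 over all genes. The medians were 3.01 for 14 MHC class II genes (2.05 at the floor) and 1.50 for 20 MHC class I genes, with 0 passing in either list. Of 34 antiviral genes, 27 were positive and none passed, with a median of 0.76. B2m, the MHC class I light chain, was at 12665 CPM in UT and at 1173 to 5081 CPM in the other 6 libraries. Ccl5, a T cell attractant, was at 3112 CPM in UT against 308 CPM in IgG replicate 1, a log2 difference of 3.51 ± 0.97 (SE, edgeR adjusted p = 0.69), but T cells make it too: 15.5% of thinned T cells of UT and 45.9% of those of IgG replicate 1 held it, against 59.6% and 4% of thinned monocytes. The 12 T and NK markers summed to 3158 CPM in UT, nearly all of it Ccl5, with none at 0, and to 308 CPM in IgG replicate 1, with 11 of 12 at 0. Trac was at 1.02 CPM and Nkg7 at 12.2 CPM in UT.

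Fn1, Cx3cr1 and Cxcl2 were at lower levels in UT than in IgG replicate 1, and none of them passed the test. Fn1, encoding fibronectin, was at 129 CPM against 937 CPM in IgG replicate 1, a log2 difference of -2.68 ± 0.82 (SE, edgeR adjusted p = 0.69). Cx3cr1, the fractalkine receptor, was at 21.9 against 183 CPM. Cxcl2 was at 97.2 against 1311 CPM, but 77.5% of its UMIs in IgG replicate 1 lay in 5 of the 25 cells, and its difference turned positive with IgG replicate 2, at 0 UMIs, as the only IgG library. Of 16 stress and immediate-early genes, 2 were positive and none passed, with a median of -0.57. Endothelial and mural markers summed to 644 CPM in UT (3 of 12 at 0, among them Pdgfrb and Col1a1) and 125 CPM in IgG replicate 1 (9 of 12 at 0, Cdh5 and Cldn5 among them). In UT Cldn5 was at 150 CPM, and the part of endothelial RNA in these differences was not tested. In the added fit over all 7 libraries, 4 of 10918 genes (0.0366%) passed in UT against IgG: Ly6i, Gm15056 and the vascular gene Igfbp7 on the higher side and Xist on the lower side. Xist, which female cells make, was called in UT against IgG in 12 of 17 alternative settings, at a median log2 difference of -8.69. Eif2s3y, a gene of the Y chromosome, was called in 2 of 17, at a median of 9.43. The UT difference cannot be told apart from the barcode list, Xist level and ribosomal-locus differences of that library. The part of the sex of the mice was not tested.

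The 7 monocytes of CD40 gave no main test. In an added fit of all libraries but UT, whatever their number of monocytes, 0 of 9931 genes (0%) passed in CD40 against IgG with edgeR, with 381 at an unadjusted p under 0.05, and DESeq2 was not run. The antiviral list summed to 1082 CPM and the interferon-gamma list to 1175 CPM, against 2569 and 1436 CPM in IgG replicate 2 and 18231 and 5393 CPM in IgG replicate 1. Isg15 was at 35.8 CPM (11.6 to 83.6), up to 71.4% of it within reach of free RNA, and Cxcl10 and Iigp1 were at 0 UMIs, with an exact interval that reaches 26.4 CPM. Cxcl9 was at 193 CPM from 2 of the 7 cells. Spp1 was at 2801 CPM and Apoe at 5809 CPM, beside 2674 and 7340 CPM in IgG replicate 1. In CD40 1 cell held 336 Spp1 UMIs. The macrophage markers summed to 5945 CPM with 4 of 7 at 0. In the same library 43 C1q macrophages held Isg15 at 97.9 CPM and Spp1 at 10783 CPM.

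Ly6c2 monocytes were last set beside the C1q macrophages of the 4 libraries that held at least 10 of each, UT, both BP libraries and BPI. The split itself rests on C1q and Ly6c2, so this is a description. Ccr2 was at 146, 263, 238 and 200 CPM in monocytes of UT, BP replicate 1, BP replicate 2 and BPI, and at 34.4, 38.2, 56.2 and 50.8 CPM in macrophages. Vcan, a matrix proteoglycan of monocytes, was at 68.7 to 223 CPM in monocytes and 10.2 to 28.0 CPM in macrophages, and S100a4, a calcium-binding protein of motile cells, at 540 to 1249 and 38.0 to 237 CPM. Rsad2, Isg15, Cxcl10, Cxcl9 and Cd274 were also higher in monocytes in 4 of 4 libraries. Rsad2 was at 527 to 1905 CPM in monocytes and 132 to 679 CPM in macrophages, while Cxcl9 was closer, at 913 to 2823 and 584 to 2076 CPM. H2-Ab1, Cd74, Apoe, Trem2, Ms4a7 and Spp1 were lower in monocytes in 4 of 4 libraries. H2-Ab1 was at 1998 to 3953 CPM in monocytes and 3519 to 8025 CPM in macrophages, and Apoe at 1676 to 3365 and 10158 to 15330 CPM. Csf1r, the receptor that macrophages need for survival, was lower in monocytes in 4 of 4 libraries by a smaller margin, at 191 to 484 and 224 to 582 CPM.

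**Figure D4:**
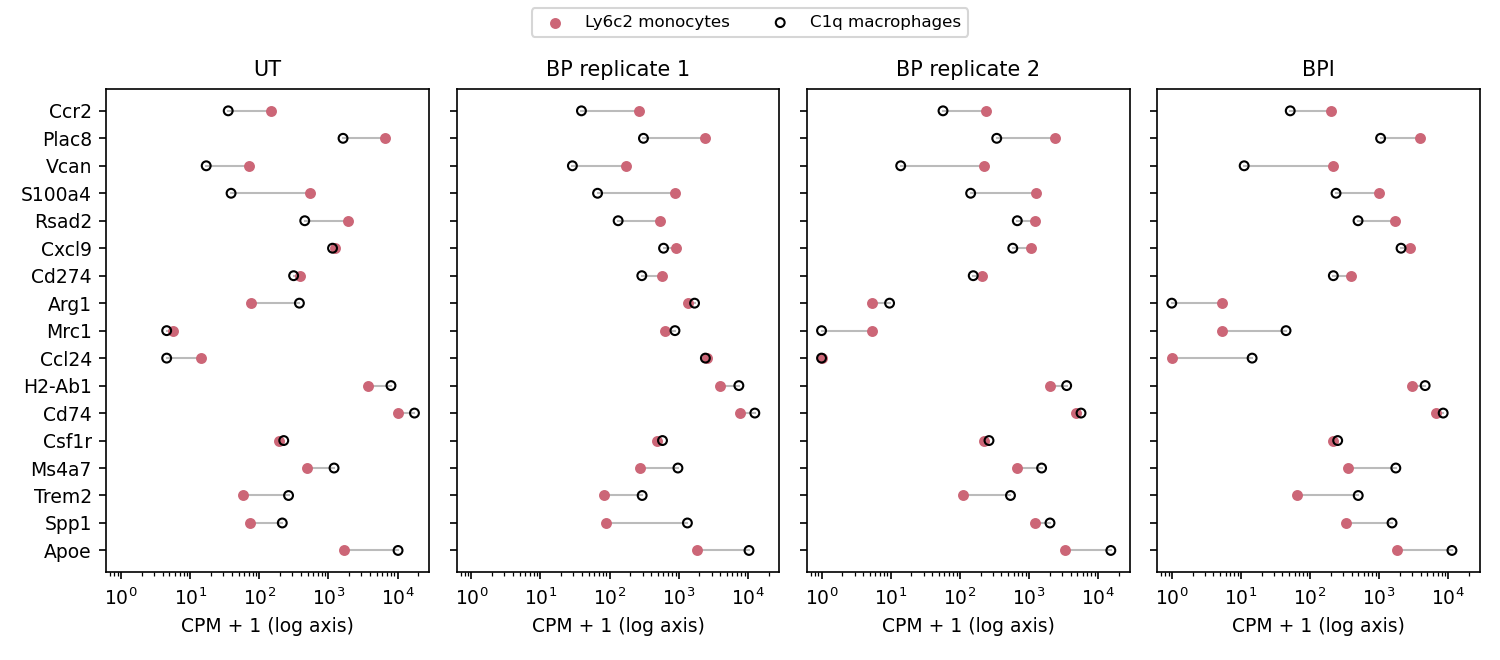
Levels of single genes (CPM + 1, log axis) in Ly6c2 monocytes (filled) and C1q macrophages (open) of the 4 libraries with at least 10 of each. Ccr2, Plac8, Vcan, S100a4, Rsad2, Cxcl9 and Cd274 lie further right in monocytes in all 4 panels and H2-Ab1, Cd74, Csf1r, Ms4a7, Trem2, Spp1 and Apoe in macrophages, while Arg1, Mrc1 and Ccl24 are high in both cell sets of BP replicate 1.

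The remaining lists gave no called gene either. In BP, BPI and UT against IgG the medians were 0.52, 0.68 and 1.18 for glycolysis and hypoxia, with 18 of 22, 20 of 22 and 21 of 23 genes positive. They were 0.45, 0.76 and 0.76 for cell cycle, -0.07, -0.03 and 0.49 for monocyte-attracting chemokines, and 0.31, 0.59 and 0.24 for suppressive myeloid genes. Classical monocyte genes had medians of -0.26, 0.21 and -0.20, with 10, 25 and 15 of 38 positive, and non-classical ones 0.56, 0.69 and 0.18. The values were -0.15, -0.16 and -0.05 for chemokine and growth factor receptors, 0.13, 0.50 and 0.33 for leukocyte adhesion, and 0.62, 0.55 and 0.35 for the drug target pathways. Stress and immediate-early genes had medians of 0.08 in BP and 0.78 in BPI. Of 13 genes of monocyte-derived dendritic cells, all were positive in BP, but 7 of them were at 0 UMIs in IgG replicate 1 and under its floor in BP, and the other 6 had a median of 1.35. Apart from glycolysis and hypoxia in UT and the dendritic cell genes, these medians lay within 1 log2 unit of 0.

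Doublets and other cells were looked for among the monocytes. Scrublet marked 6 of the 245 monocytes in UT, 0 of 25 in IgG replicate 1, 1 of 3 in IgG replicate 2, 38 of 463 and 12 of 136 in BP, 33 of 395 in BPI and 1 of 7 in CD40. In BP replicate 2, 1138 UMIs of S100a9 came from 1 cell, which puts the S100a9 level of that library, 1251 CPM, on a single cell.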

How the data were processed

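Each library's deposited matrix holds raw UMI counts. The authors made it with Cell Ranger 4 per the file headers and with Cell Ranger 7.0.1 on mm10 per the submitters' processing notes; which of these applies was not settled. The files held 32285 genes and all listed barcodes. Cells were barcodes reaching 1000 UMIs and 500 genes with no more than 15% of UMIs from mitochondrial genes, and the rule of the report was applied to them. UMIs were summed over the monocytes of each library and tested with edgeR 4.0.16 (TMM, filterByExpr, quasi-likelihood, Benjamini-Hochberg) in R 4.3.3, using libraries with at least 10 monocytes, with groups from the sample titles. UT against IgG was fitted with all 5 such libraries and the other contrasts without UT. The test was tried on simulated counts. DESeq2 1.42.0, other filters, thresholds of the rule, thinning to 1000 UMIs, removal of the highest Scrublet scores (scanpy 1.11.5, 0.8% per 1000 cells) and subtraction of free RNA were alternatives. Shares were compared with an exact permutation test. Free RNA was read from barcodes of at most 100 UMIs. Doublets stayed in the main values.

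Named genes were the genes of a fixed set of 40 whatever their values, and up to 4 genes of each of 17 lists with the largest log2 difference at an average log2 CPM of at least 5. Genes that passed the test would also have been named. Genes named beside these, among them Gbp5, Iigp1, Pdcd1 and the marker genes of other cells, were picked with their values in view. The members, lists and tests were chosen with earlier results of these data known. Of the list genes, 4 were not in the files. Positions are from GENCODE vM21 and all 475 genes looked up were found. The series' second tumour model was not analysed here. Some items are not reported here.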

Additional observations from a re-analysis of the deposited data

How the results depend on the processing

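The numbers of monocytes and of libraries limit these results: IgG rests on 25 monocytes of 1 library, with 1 residual degree of freedom in the fit of BP, BPI and IgG. The 4 contrasts gave 0 calls, and alternatives that call genes do so from the same few libraries. The numbers below are genes called in BP against IgG, BPI against IgG, BPI against BP and UT against IgG, in that order, and the cause of each change was not tested. Without the low-count filter they were 28, 30, 37 and 93. DESeq2 gave 1, 16, 0 and 32. Leaving out Scrublet doublets gave 23, 32, 24 and 33. A C1q limit under 3 gave 13, 16, 20 and 61, and Ly6c2 of at least 5 gave 8, 15, 29 and 0. Thinning to 1000 UMIs gave 6, 3, 9 and 17. Leaving out monocytes with markers of other cells gave 0, 3, 0 and 66. Median-of-ratios size factors gave 0, 0, 0 and 11. Subtracting free RNA gave 0 in all 4, and pooling UT with IgG as the control gave 0 in both contrasts it allows.

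A fit over all libraries whatever their number of monocytes, with UT only in its own contrast, was added after seeing the data and gave 0, 0, 0 and 4 calls, and 0 in CD40 against IgG. Leaving out each IgG and BP library in that fit gave 0 to 14 calls in BP against IgG, 0 to 11 in BPI against IgG, 0 to 5 in BPI against BP, 0 to 21 in UT against IgG and 0 to 3 in CD40 against IgG. Without BP replicate 1 the first 3 contrasts gave 5, 8 and 3 calls and CD40 gave 2, and without BP replicate 2 they gave 14, 11 and 5 and CD40 gave 3. UT against IgG gave 21 without IgG replicate 1 and 1 without IgG replicate 2. In the fit of the 5 libraries, leaving out IgG replicate 1 or a BP library left no IgG library or no residual degree of freedom and gave no test of the contrasts it touches.

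The replicate numbers are shared by IgG and BP, and nothing in the labels says that they pair libraries. The correlation of deviations from the group mean, given below, cannot settle it. With 2 libraries per group the given and the crossed pairing differ only in sign, at -0.24 and 0.24. The IgG deviations also rest on the 3 monocytes of IgG replicate 2. With the replicate number as a block, the fit over all libraries called 3, 0, 7 and 3 genes, and 0 in CD40 against IgG. The deviations of IgG replicate 1 and BP replicate 1 had a correlation of -0.24 over 1888 genes, and the crossed pairing as a block called 24, 38, 4 and 99 genes, and 28 in CD40 against IgG.

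Of the named genes' results under alternatives, 5914 kept their side of the threshold and 223 passed it. With IgG replicate 2 as the only IgG library the sign turned for 36 of 87 named genes in BP, 21 of 86 in BPI and 26 of 86 in UT against IgG. The difference in the monocytes' share of cells ran from 2.04 to 4.17 percentage points when a library was left out, and that in their share of monocytes plus macrophages from -13.2 to 52.4. Over the other settings the first ran from 2.72 to 3.39 and the second from 16.9 to 26.0 percentage points. The second difference, 19.6 in the main setting, was smaller than the SDs of its libraries, 26.2 in BP and 46.4 in IgG.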
